A study of Mus musculus with 24 samples.

Results

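The very strong PU.1 peaks were the unique intervals of the untreated PU.1 list with a score of 100 or more that overlapped, by at least 1 bp, a peak of the vitamin C list. They numbered 1741, which is 2.83% of the 61611 unique untreated peaks. The score is the authors' value per peak, of unstated definition, and is used here to rank peaks within 1 list only. The peaks were selected on this measured score and on the overlap of the lists, so their scores are a description and no test was made on them. The score of 100 was passed by 1744 untreated peaks, so 3 were left out for having no peak with vitamin C. These 3 lay nearest to Nucb2 (score 108), Dclk2 (107) and Plxna1 (107).

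The cells came from mouse bone marrow and had been immortalized with HOXA9, a homeobox factor that holds myeloid progenitors in a growing, undifferentiated state. All libraries with peak or RNA values compared here came from cells with a vector for IDH1 R132H, a mutant isocitrate dehydrogenase whose product inhibits oxygenases such as the TET enzymes. Cells were grown with IL-3, IL-6 and SCF. They were left untreated or received 0.345 mM vitamin C at 0, 24 and 48 h with harvest at 72 h, while no harvest time stands in the labels of the untreated cells. Vitamin C is a cofactor that helps TET enzymes oxidize methylated cytosine. Each condition had 1 library per assay, so no difference between conditions has a replicate check. No p-value is given, and intervals cover counting error only. The cells form a bulk culture, in which fewer cells of a type and less RNA per cell cannot be told apart.

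PU.1, encoded by Spi1, is an ETS-family transcription factor that binds purine-rich DNA around a GGAA core and is required for the monocyte, neutrophil and B cell lineages. It binds many enhancers in myeloid cells, where it helps to open chromatin together with partners such as RUNX1 and C/EBP factors. H3K4me1 is found at enhancers, H3K4me3 mainly at active gene starts, and H3K27ac at active elements of both kinds. Runx1 is a core haematopoietic factor that often binds next to PU.1.

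One group of these peaks lay in the paired immunoglobulin-like receptor genes on chromosome 7, which encode activating (Pira) and inhibitory (Pirb) receptors for MHC class I molecules on myeloid and B cells. From the peak over Pirb to that over Lilra6, chr7:3720170-3916016 in mm10, the starts of 6 genes each carried a very strong peak. In the stretch from Rps9 to just beyond Lilra6 there were 20 untreated peaks, 10 of them very strong. The sequences of the 6 promoters are shown because they carry the same 7-base ETS motif in nearly the same surroundings. Each line gives the motif GAGGAAG in capitals with 30 bases on either side, 5′ to 3′ on the minus strand on which the genes lie, from RefSeq promoters of GRCm38.p6. The coordinates, in the same order, are chr7:3720466-3720532, chr7:3740001-3740067, chr7:3825781-3825847, chr7:3845163-3845229, chr7:3898224-3898290 and chr7:3915615-3915681.
Pirb: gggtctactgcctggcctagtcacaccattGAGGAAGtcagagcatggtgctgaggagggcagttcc
Pira1: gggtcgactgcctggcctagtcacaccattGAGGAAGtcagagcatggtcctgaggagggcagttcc
Gm15448: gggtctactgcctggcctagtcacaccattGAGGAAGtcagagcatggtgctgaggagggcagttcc
Pira2: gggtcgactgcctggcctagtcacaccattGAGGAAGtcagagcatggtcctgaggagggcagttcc
Gm14548: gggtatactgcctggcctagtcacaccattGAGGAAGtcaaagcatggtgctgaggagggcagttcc
Lilra6: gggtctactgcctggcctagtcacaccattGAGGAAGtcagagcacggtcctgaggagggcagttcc
The stretch of Gm15448 differed from that of Pirb at 0 of 67 bases, and those of Pira1, Pira2, Gm14548 and Lilra6 differed from it at 2 bases each. The motif began 120 bases before the start of Pirb and of Pira1, 57 before Gm15448, 148 before Pira2, 119 before Gm14548 and 150 before Lilra6. Aligned over the 207 to 300 bases that their 300-base promoter windows shared, the 15 pairs of genes were 94.5% to 100% identical, with a median of 96.3%. Because the copies are so alike, reads could be shared or split between them. How reads with several matches were placed is not given in the sources used here, so the height of each single peak is uncertain.

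The PU.1 scores at these 6 starts were 392 untreated and 254 with vitamin C at Pirb, and 419 and 237 at Pira1. They were 402 and 234 at Gm15448, and 403 and 234 at Gm14548. Lilra6 had 383 and 198, and Pira2 had 267 and 255. All 6 were thus well above 100 in the untreated list. The other very strong peaks of the stretch lay away from these starts and scored 332 (32131 bp from Pira1), 283 (23866 bp from Pira2), 120 and 109 untreated. The peaks of this stretch that were not very strong are under 100 by the rule and scored 2.20 to 60.8 untreated. H3K4me3 and H3K27ac peaks lay over all 6 in both conditions. RNA from 5 of the genes was measured, in RPKM, that is, reads divided by the length of the gene and the size of the library. Pirb had 39.1 RPKM untreated and 53.0 with vitamin C, Pira2 46.3 and 56.9, Lilra6 34.9 and 45.4, Gm14548 62.9 and 66.5, and Gm15448 16.9 and 20.9. Each of the 5 was a little higher with vitamin C and none by 2-fold, with the same reservation about near-identical copies.

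**Figure D1:**
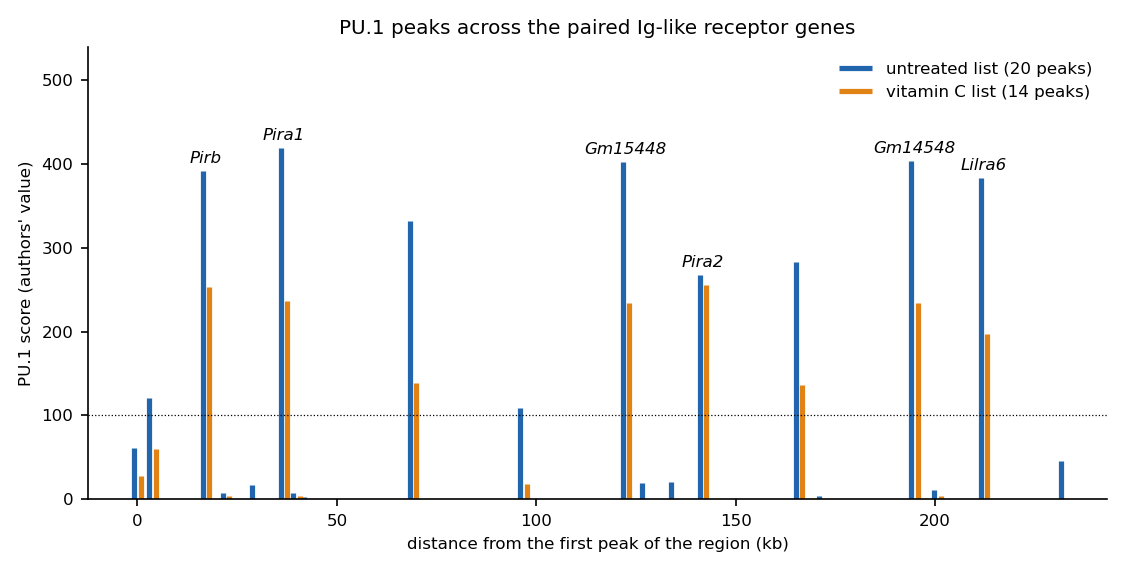
PU.1 score (the authors' value, vertical axis) of each peak against its distance in kb from the first peak of the paired immunoglobulin-like receptor region, untreated in blue and vitamin C in orange, with the threshold of 100 as a dotted line. The 6 labelled gene starts hold untreated scores of 267 to 419. The unlabelled very strong peaks scored 109 to 332 untreated, and the peaks of this stretch that were not very strong stay at 60.8 or less.

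The same 7 letters stood in many promoters with a very strong peak. Of the RefSeq promoter windows (250 bases before to 50 after a start), 72 lay wholly inside such a peak. Of these, 46 held GAGGAAG or its other-strand form CTTCCTC, which is 63.9% (95% interval 51.7 to 74.9%). Peaks shorter than the 300-base window could not enter these counts. Without the 6 near-identical receptor promoters, a count added after seeing the data, it was 40 of 66 (60.6%, 47.8 to 72.4%). The windows are not independent, since 3 genes also enter with 2 starts each. The share was 35.2% (200 of 568) for windows wholly inside any other untreated PU.1 peak of the list and 13.6% (2892 of 21238) for all windows. The plain core GGAA, which lies inside GAGGAAG, was in 100%, 99.6% and 95.7% of these windows, so it separates little. A longer form of 10 letters, with A before these 7 and TG after them, was in 18.1%, 3.87% and 0.452%. The 58 copies of the 7-base motif lay a median of 36.5 bp from the midpoint of the PU.1 peak, and 43 were within 100 bp. A match describes the letters in this window and is not a mapped binding site. These 8 further promoters are examples of myeloid genes, picked with their values already known. The motif is in capitals, read on the strand of the gene, so that CTTCCTC marks a motif on the opposite strand. Only 1 copy per stretch is in capitals, and those of Samsn1 and Clec5a hold a further copy in lower case.
Cd300lf: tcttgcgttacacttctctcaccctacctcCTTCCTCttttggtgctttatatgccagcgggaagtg
Arhgap25: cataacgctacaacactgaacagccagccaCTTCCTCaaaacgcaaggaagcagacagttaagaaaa
Pik3cg: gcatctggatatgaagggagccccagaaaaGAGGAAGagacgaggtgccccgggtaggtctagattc
Dusp5: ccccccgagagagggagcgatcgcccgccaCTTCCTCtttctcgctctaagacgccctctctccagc
Samsn1: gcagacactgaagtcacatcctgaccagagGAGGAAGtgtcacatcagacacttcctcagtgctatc
Clec12a: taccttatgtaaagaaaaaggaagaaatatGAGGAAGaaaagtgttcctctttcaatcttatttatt
Clec5a: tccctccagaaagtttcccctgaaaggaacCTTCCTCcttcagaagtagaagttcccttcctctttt
Laptm5: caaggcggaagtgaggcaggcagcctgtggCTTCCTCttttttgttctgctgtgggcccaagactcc
The stretches lie on the minus strand at chr11:115134000-115134066 (Cd300lf), chr6:87533268-87533334 (Arhgap25), chr12:32208586-32208652 (Pik3cg), chr16:75909280-75909346 (Samsn1) and chr6:40585851-40585917 (Clec5a). Those on the plus strand are chr19:53528923-53528989 (Dusp5), chr6:129350153-129350219 (Clec12a) and chr4:130913247-130913313 (Laptm5).

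These genes encode an inhibitory receptor of myeloid cells (Cd300lf), a Rac GTPase-activating protein (Arhgap25), the catalytic subunit of PI3K gamma (Pik3cg), an ERK phosphatase (Dusp5), an adaptor (Samsn1), lectin receptors (Clec12a, Clec5a) and a lysosomal membrane protein of haematopoietic cells (Laptm5). The RNA of Laptm5 was 398 RPKM untreated and 404 with vitamin C, under a peak scored 103 and 48.0. The RNA of Cd300lf was 4.87 and 10.2 RPKM, under a peak scored 226 and 96.5. The RNA of Arhgap25 was 17.3 and 15.6 RPKM, under a peak scored 217 and 153. A higher peak score did not go with a higher RPKM among these 3.

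Across the 1741 peaks the untreated score ran from 100.2 to 687 with a median of 141, against a median of 8.78 in the whole untreated list. With vitamin C the overlapping peak scored 2.07 to 445 with a median of 65.2, against 7.39 in the whole vitamin C list, which held 23522 unique peaks. The 2 lists differ in length and their scores were not set on a common scale here, so these values are given side by side. Within the vitamin C list, 1453 of the peaks (83.5%) were among its highest 10%, which began at a score of 35.8, and 10 scored under 10. Of the 394 vitamin C peaks that scored 100 or more, 388 (98.5%) lay over a very strong untreated peak. The intervals were long, with a median of 627 bp against 307 bp for all untreated peaks, and 375 bp for the 20516 peaks found in both lists with an untreated score under 100, called weaker shared peaks below.

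The highest untreated score, 687, lay inside Jazf1, which encodes a zinc finger regulator, at chr6:52842371-52843237, and its vitamin C score was 431. The next, 644 and 442, lay at chr19:8019672-8020626, 53645 bp from the transporter gene Slc22a27. The third in order, 630 and 445, lay inside Nnmt, the gene for nicotinamide N-methyltransferase, at chr9:48558520-48559345. These 3 did not lie at expressed genes: Jazf1 had 0.593 RPKM untreated and 0.252 with vitamin C, and Slc22a27 and Nnmt were listed at 0. The peak inside Nnmt overlapped H3K4me1 in both conditions and neither of the other histone marks, and the one inside Jazf1 overlapped H3K4me3 and H3K27ac in both.

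A peak scored 561 and 248 followed, at chr14:103486831-103487609 and 25732 bp from Scel, a gene of cornified epithelium with 0.0270 and 0.120 RPKM. The peak at chr13:52571932-52572993 scored 527 and 305 and lay 10444 bp from Syk, the tyrosine kinase that signals downstream of Fc and lectin receptors. It overlapped all 3 histone marks in both conditions, and Syk had 33.0 RPKM untreated and 27.2 with vitamin C. A peak of 526 and 268 lay inside Hmga2, a chromatin protein gene of 6.61 and 7.69 RPKM, and one of 514 and 369 lay inside Mthfd1, a folate enzyme gene of 50.6 and 47.2 RPKM. The start nearest to this last peak, 5236 bp away, was that of Akap5, a kinase anchoring protein gene, with 0.0222 and 0.0688 RPKM. High scores thus stood both at genes with RNA above 1 RPKM (Syk, Hmga2, Mthfd1) and at genes below it (Jazf1, Slc22a27, Nnmt, Scel, Akap5). The highest vitamin C scores belonged to the same peaks at Nnmt, Slc22a27, Jazf1 and Mthfd1, to a peak 5124 bp from Qpct, a glutaminyl cyclase gene (392, and 297 untreated), and to one near the pheromone receptor gene Vmn2r97 (319, and 254 untreated).

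At the threshold, the 5 lowest included peaks scored 100.2 untreated and lay nearest to Sec14l1, Satb1, Rasgrp1, Gcnt4 and Rsbn1l, with vitamin C scores of 22.0 to 103. The 5 highest left out scored 99.7 to 99.8 and lay nearest to C77080, Gdf3, Ptpn18, Olfr1413 and Nmbr, with vitamin C scores of 20.5 to 37.8. The cut therefore divides a continuous range.

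**Figure D2:**
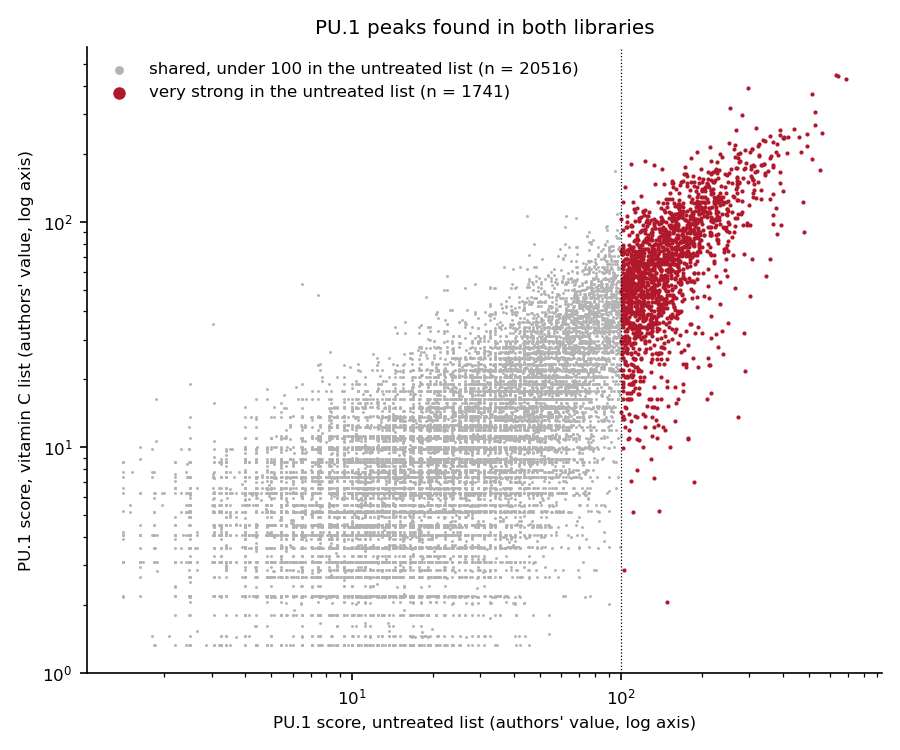
Vitamin C PU.1 score against untreated PU.1 score for each peak found in both lists, with the 1741 very strong peaks set apart from the weaker shared ones at an untreated score of 100 and both axes on a log scale. The very strong peaks spread from 2.07 to 445 on the vitamin C axis, with a median of 65.2.

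The very strong peaks were mostly distal. Promoters, taken as 1 kb around the start of a protein-coding gene in RefSeq, held 148 of them (8.50%, 95% interval 7.23 to 9.91%), and 80 peaks covered a start. The promoter share was 7.57% for all untreated peaks and 8.46% for the weaker shared peaks, both inside that interval. For 29 peaks (1.67%) the place could not be set because the strand of the nearby gene was not in the table used, and 1564 (89.8%) were distal. The span of a protein-coding gene held 933 (53.6%, 51.2 to 56.0%), against 47.3% of all untreated peaks.

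They lay nearer to gene starts than the full list, with a median distance of 19089 bp against 28559 bp. Within 50 kb of a start lay 1287 (73.9%), against 62.3% of all peaks, and beyond 100 kb lay 14.1% against 24.3%. The largest distance band, 10 to 50 kb, held 687 (39.5%). Few lay next to each other, since 107 (6.15%) were within 10 kb of another. By chromosome, their share of untreated peaks ran from 1.97% on chromosome 3 to 3.82% on chromosome 6 among the autosomes, while chromosome X had 14 of 2365 peaks (0.592%).

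Histone marks were more frequent over the very strong peaks than over the weaker shared ones in each list. Untreated H3K27ac lay over 1184 (68.0%, 65.8 to 70.2%), against 40.2% of weaker shared peaks and 31.0% of all untreated peaks. With vitamin C it lay over 1155 (66.3%), against 39.5% and 30.5%. H3K4me3 gave 68.0% untreated and 69.7% with vitamin C, against 40.5% and 41.9% of the weaker shared peaks. These shares of H3K27ac and H3K4me3 moved by less than 2 percentage points between conditions.

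H3K4me1 differed more between the libraries. It lay over 1156 very strong peaks untreated (66.4%, 64.1 to 68.6%) and 718 with vitamin C (41.2%, 38.9 to 43.6%), and over 44.4% and 29.4% of the weaker shared peaks. Of the 1156, 520 (45.0%, 42.1 to 47.9%) kept an H3K4me1 peak with vitamin C, beside 45.2% for all untreated PU.1 peaks. The loss was therefore as frequent over the whole list as over the very strong peaks. The H3K4me1 list held 57750 peaks untreated and 45657 with vitamin C, and what part its length has in the loss was not tested. Of the peaks with H3K27ac untreated, 94.0% kept it, and of those with H3K4me3, 95.7% kept it. These shares are not set beside those over all untreated PU.1 peaks, so they are not read as particular to the very strong peaks.

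Longer intervals can meet more peaks. With each peak cut to 200 bp around its midpoint, H3K27ac untreated lay over 64.5% of the very strong peaks and 38.7% of the weaker shared ones. H3K4me1 untreated lay over 65.0% and 43.8%, and H3K4me3 untreated over 64.0% and 38.8%. The gap between strong and weaker peaks was thus of similar size at equal length.

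Among all peaks found in both lists, the share with untreated H3K27ac rose with the PU.1 score in each step, from 29.9% under 10, 48.0% at 25 to 50 and 55.8% at 50 to 100, to 62.8% at 100 to 150, 77.3% at 200 to 300 and 81.7% at 300 or more. Untreated H3K4me1 rose from 32.5% under 10 to 64.9% at 100 to 150 and then stayed between 65.9% and 69.8%. The median interval length also rose over these steps, from 290 to 735 bp, and was not adjusted for here. The promoter share had no such order and lay between 5.24% and 10.3%.

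**Figure D3:**
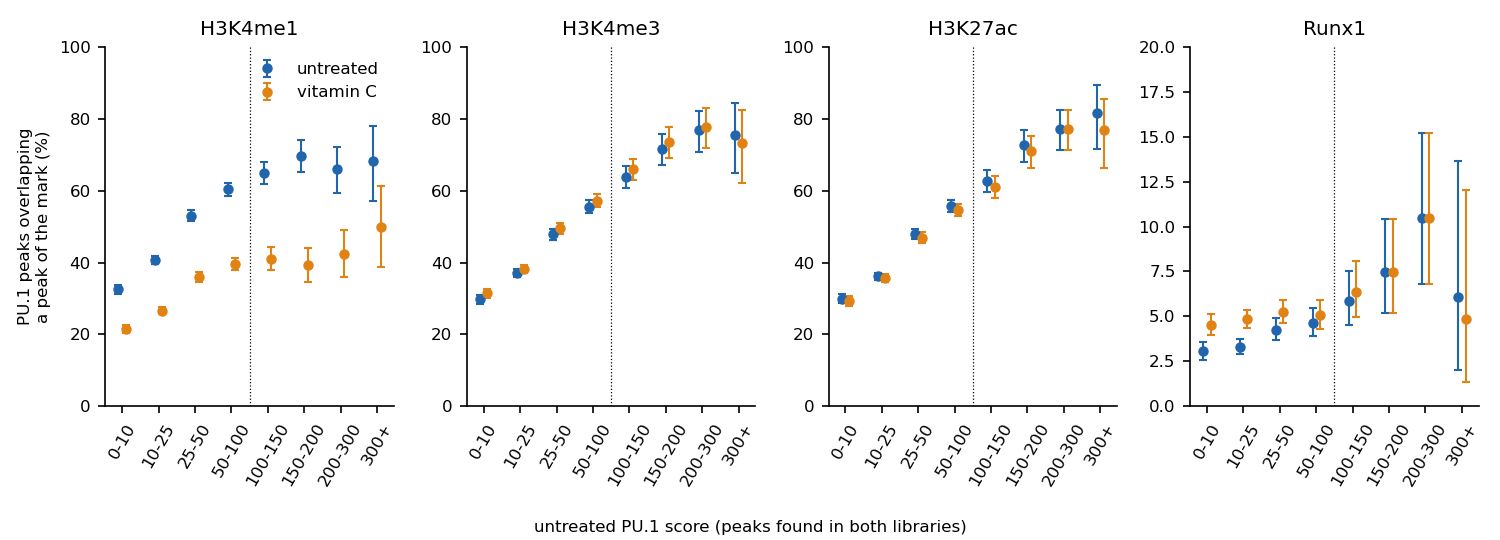
Share of PU.1 peaks found in both lists that overlap a peak of H3K4me1, H3K4me3, H3K27ac or Runx1, in percent (the Runx1 axis ends lower), by untreated PU.1 score, with untreated in blue, vitamin C in orange and exact 95% binomial intervals as bars. Untreated H3K27ac rises from 29.9% to 81.7%, and the dotted line marks the score of 100.

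Taken in combination, all 3 histone marks lay over 754 very strong peaks untreated (43.3%) and 429 with vitamin C (24.6%). H3K27ac with H3K4me3 and without H3K4me1 went the other way, from 308 (17.7%) to 619 (35.6%). These classes differ only in H3K4me1, whose loss was as frequent over all untreated PU.1 peaks, so the shift is not read as particular to the very strong peaks. Peaks with none of the 3 marks numbered 192 (11.0%) untreated and 265 (15.2%) with vitamin C, against 46.9% and 52.2% of all untreated PU.1 peaks. H3K4me1 alone lay over 14.0% and 8.90%. In each of the 2 libraries a minority of the very strong PU.1 peaks thus had no histone peak.

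**Figure D4:**
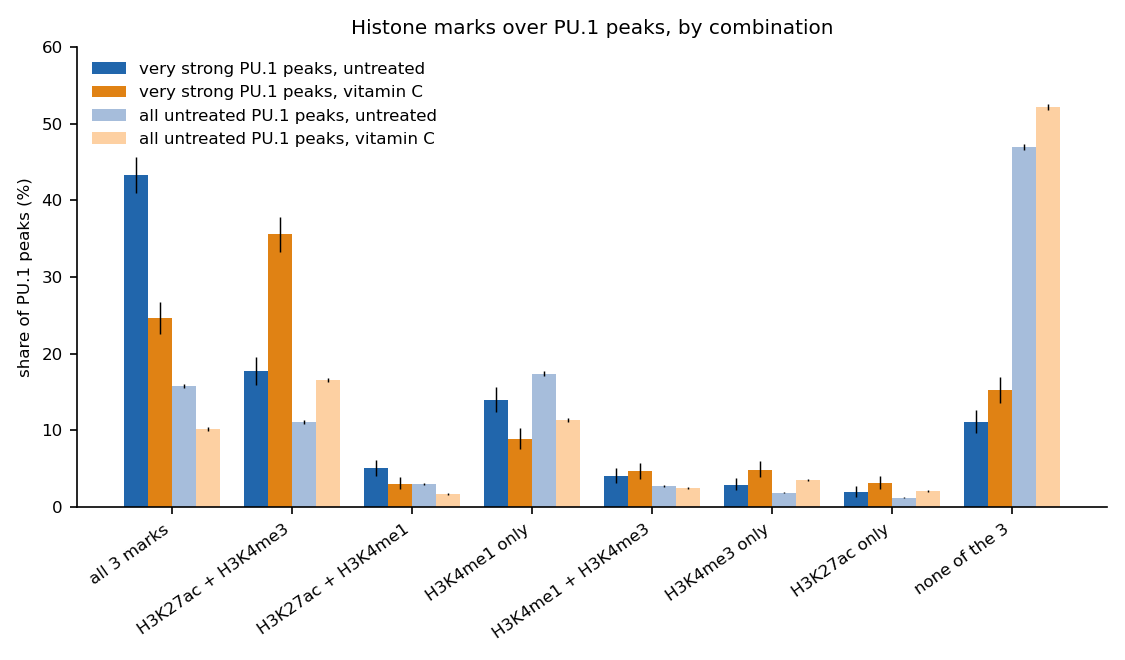
Share of the very strong PU.1 peaks, in percent, that carry each combination of H3K4me1, H3K4me3 and H3K27ac peaks in the untreated (blue) and vitamin C (orange) libraries, beside the same for all untreated PU.1 peaks in pale colours, with exact 95% binomial intervals as lines. All 3 marks together fall from 43.3% to 24.6%, while H3K27ac with H3K4me3 and no H3K4me1 goes from 17.7% to 35.6%.

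Promoter and distal peaks differed in these marks. Of the 148 promoter peaks, 95.9% overlapped H3K4me3 and 93.9% H3K27ac untreated, and 96.6% and 94.6% with vitamin C. Of the 1564 distal peaks, 65.3% overlapped H3K4me3 and 65.4% H3K27ac untreated. These shares are not set beside those over all promoter or all distal untreated PU.1 peaks. The difference between promoter and distal peaks is therefore not read as particular to the very strong peaks. The H3K4me3 peaks over distal sites were shorter than those over promoter peaks. By the authors' p-value or q-value, 21.4% of them (218 of 1021, 18.9 to 24.0%) were in the strongest 25% of the H3K4me3 list, against 77.5% (110 of 142) of those over promoter peaks, and their median length was 1033 bp against 2424 bp. The median of the whole H3K4me3 list was 837 bp. For all distal untreated PU.1 peaks, 24.4% of the overlapping H3K4me3 peaks were in the strongest 25%, just above the interval for the distal very strong peaks. With vitamin C the share was 17.8% (15.6 to 20.3%) for the distal very strong peaks and 22.8% for all distal untreated PU.1 peaks. For untreated H3K27ac the strongest 25% held 45.9% of the distal and 65.5% of the promoter peaks, a smaller gap. H3K4me1 untreated lay over 58.8% of promoter and 67.3% of distal peaks, and with vitamin C over 29.7% and 42.5%.

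Runx1 peaks lay over few of the very strong PU.1 peaks. Untreated there were 120 (6.89%, 5.75 to 8.19%), against 3.66% of weaker shared peaks, and with vitamin C 124 (7.12%, 5.96 to 8.43%), against 4.88%. The Runx1 lists were short, with 3908 unique peaks untreated and 6250 with vitamin C. The Runx1 peaks involved were not strong in their own lists: 3 of the 120 untreated and 4 of the 124 with vitamin C were among the highest 10% of Runx1 scores. Runx1 was present in both conditions at 73 peaks, in untreated cells only at 47 and with vitamin C only at 51. Of the 120, 60.8% (51.5 to 69.6%) thus kept Runx1, below the 75.9% (73.8 to 77.9%) over all untreated PU.1 peaks.

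At promoters the Runx1 share was higher, 16.9% untreated (25 of 148, 11.2 to 23.9%) and 23.6% with vitamin C (35, 17.1 to 31.3%), than at distal peaks, 6.01% and 5.50%. The Runx1 shares over all promoter and all distal untreated PU.1 peaks are not set beside these. Of the 73 peaks with Runx1 in both conditions, 20 were at promoters, 61 had H3K27ac in both and 65 had H3K4me3 in both. Examples chosen after their values were seen are the promoter of Dusp5 and a peak over the start of Edem1, an ER quality-control gene. The Runx1 scores were 21.8 untreated and 75.8 with vitamin C at Dusp5, and 20.0 and 144 at Edem1. A peak at Tnfaip3, which encodes the A20 inhibitor of NF-kB signalling, had 5.10 and 34.4. These 3 had the higher value with vitamin C. Other peaks had the lower value there, such as those at Actr2 (12.6 and 3.83) and inside Ncam2 (16.5 and 7.81). The 2 Runx1 lists are of different lengths, and the median score of the whole list was 7.78 untreated and 14.5 with vitamin C. These scores are therefore side by side only. Runx1 itself had 2 very strong PU.1 peaks nearby, scored 202 and 110 for the stronger and 121 and 44.3 for the weaker, and 52.5 RPKM untreated and 66.3 with vitamin C.

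Deposited lists of methylation regions met few of the peaks. WGBS regions of the list named deMR lay over 25 (1.44%, against 1.51% of all untreated PU.1 peaks), and hMeDIP regions named iHR over 20 (1.15% against 0.688%). The WGBS iMR list met 6 (0.345% against 0.193%), the MeDIP deMR list 4 (0.230% against 0.336%), the MeDIP iMR list 1 (0.0574% against 0.107%) and the list of mutant MeDIP regions, deposited with the untreated wild-type IDH1 cells, 8 (0.460% against 0.279%). With counts this small the 95% intervals are wide, and the share over all untreated PU.1 peaks lies outside the interval for hMeDIP iHR alone (0.703 to 1.77%), with the very strong peaks being the longer intervals. These names are not spelled out in the labels, and the regions carry no values. Examples, chosen after the overlaps were seen, are a peak near Cyba, a subunit of the phagocyte NADPH oxidase, in both deMR lists, and 2 peaks near Mitf, a transcription factor of mast cells and pigment cells, with a WGBS deMR at one and an iHR at the other.

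The gene start nearest to each peak, within 50 kb, gave 1159 protein-coding genes, and 1124 had a row in the RNA tables. The nearest gene need not be the gene on which a peak acts. Of the 1124, 859 (76.4%) reached 1 RPKM in at least 1 library, against 46.6% of all genes and 65.6% of the genes nearest to weaker shared peaks. Their median was 11.9 RPKM untreated (95% interval 10.7 to 13.5) and 12.6 with vitamin C, against 7.03 untreated for the genes of the weaker shared peaks. Among genes of 1 RPKM or more the medians were 19.0 for the genes of very strong peaks and 15.4 for all genes. By distance of the peak, the untreated median of the nearest genes was 17.9 RPKM within 1 kb, 11.4 at 1 to 10 kb, 11.7 at 10 to 50 kb, 7.20 at 50 to 100 kb and 3.05 beyond.

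The histone state of the peaks went with the RNA of the nearest genes. The 762 genes whose peak had H3K27ac in both conditions had a median of 17.0 RPKM untreated and 17.4 with vitamin C. The 321 genes of peaks with H3K27ac in neither had 6.61 and 7.07 RPKM. Promoters held 137 of the 1113 peaks with H3K27ac in both and 6 of the 515 with it in neither. The part of distance in these medians was not tested, and a gene with several peaks can enter more than 1 class. Peaks with H3K27ac in untreated cells only (71, with 46 genes) had 5.01 and 4.21 RPKM, and those with it in vitamin C only (42, with 29 genes) had 6.65 and 6.41. The 53 genes of peaks with Runx1 in both conditions had 22.3 and 25.5 RPKM.

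Most nearby genes held their level between the libraries. With a 2-fold threshold on log2(RPKM + 0.5), 36 of the 859 genes (4.19%) were higher with vitamin C and 10 (1.16%) lower. Over all 10436 genes of at least 1 RPKM, 2.38% were higher and 1.92% lower, and for genes of weaker shared peaks the values were 3.14% and 2.08%. The median log2 change was 0.02 for the nearby genes and -0.04 for all genes. Within 2-fold stayed 813 nearby genes (94.6%), against 95.7% of all. Folds below are RPKM ratios with an exact 95% interval of the reads, and log2 changes use the pseudocount of 0.5.

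The 8 largest rises in log2 change among nearby genes of at least 5 RPKM in 1 or both libraries come first. Fosb, an immediate early AP-1 gene, had 0.205 RPKM untreated and 26.9 with vitamin C, a ratio of 131 (101 to 174) and a log2 change of 5.28. Its peak, 6321 bp away, scored 129 and 37.6 and carried Runx1 in both conditions. Dusp1, a MAP kinase phosphatase, had 5.00 and 69.8 RPKM, 14.0-fold higher (13.1 to 14.9). Acod1, which makes itaconate in activated macrophages, had 1.14 and 13.1 RPKM, 11.5-fold higher (10.0 to 13.2). Hmox1, the haem-degrading enzyme induced by oxidative stress, had 12.9 and 101 RPKM, 7.80-fold higher (7.46 to 8.17). These 4 genes differ in function, and each had H3K27ac over its peak in both libraries.

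The other rises of the 8 were in Fxyd4, an ion pump regulator (0.212 and 9.33 RPKM), the cytokine Lif (6.23 and 47.4), the chemokine Ccl6 (3.36 and 25.4) and Rgs2, a regulator of G protein signalling (8.59 and 43.8). Their log2 changes were 3.79, 2.83, 2.75 and 2.28. Fxyd4 was the one of these 8 genes with its peak within 1 kb of the start. Further genes past 2-fold, named after their values were seen, include Cd69 (34.1 and 153 RPKM), Il1b (0.373 and 3.88) and Nlrp3 (13.3 and 31.5), which belong to leukocyte activation and the inflammasome.

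Among nearby genes of at least 5 RPKM in 1 or both libraries, the largest fall in log2 change was that of Hpgd, the prostaglandin-degrading enzyme, with 208 RPKM untreated and 20.8 with vitamin C, 9.98-fold lower (9.63 to 10.4). Both of its very strong peaks kept H3K27ac. At lower RPKM, Nlrp1a, an inflammasome sensor gene chosen after its values were seen, had 1.46 and 0.114 RPKM, a larger ratio (12.9-fold lower, 9.43 to 18.0) and a smaller log2 change (-1.68). Ank, a transporter of pyrophosphate, had 18.6 and 2.98 RPKM, 6.26-fold lower (5.85 to 6.71), and its peak had H3K27ac in untreated cells only. The same was seen at St6gal1, a sialyltransferase chosen after its values were seen, with 3.28 and 1.04 RPKM. These were the only 2 of the 10 lower genes with that pattern of H3K27ac.

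Cd44, the hyaluronan receptor, had 13.5 and 2.44 RPKM, with its peak 49203 bp away and no H3K27ac over it. Ggta1, a galactosyltransferase, had 8.82 and 3.09 RPKM, and Clec2d, a lectin-like ligand, had 15.7 and 7.31. The next genes in order did not pass 2-fold: Slc26a11 had a log2 change of -0.86, Nuak2 -0.83 (20.7 and 11.4 RPKM) and Meis1, the cofactor of HOXA9, -0.83 (18.3 and 10.0 RPKM).

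The genes with the highest RPKM stayed within 2-fold. Actb had 1543 RPKM untreated and 1902 with vitamin C, and Ctsd, a lysosomal protease, 1100 and 1692. Srgn, the granule proteoglycan, had 736 and 1057 RPKM, and Gpx1, glutathione peroxidase, 692 and 442. Arhgdib, a gene of blood cells with a peak over its start, had 799 and 692 RPKM. Hbb-bt, a beta globin gene with near-identical copies, had 967 and 1071 RPKM, Ly6e 678 and 824, and Ptma 622 and 691. Their peaks scored 105 to 279 untreated, so none of these 8 genes lay at the very highest PU.1 scores.

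**Figure D5:**
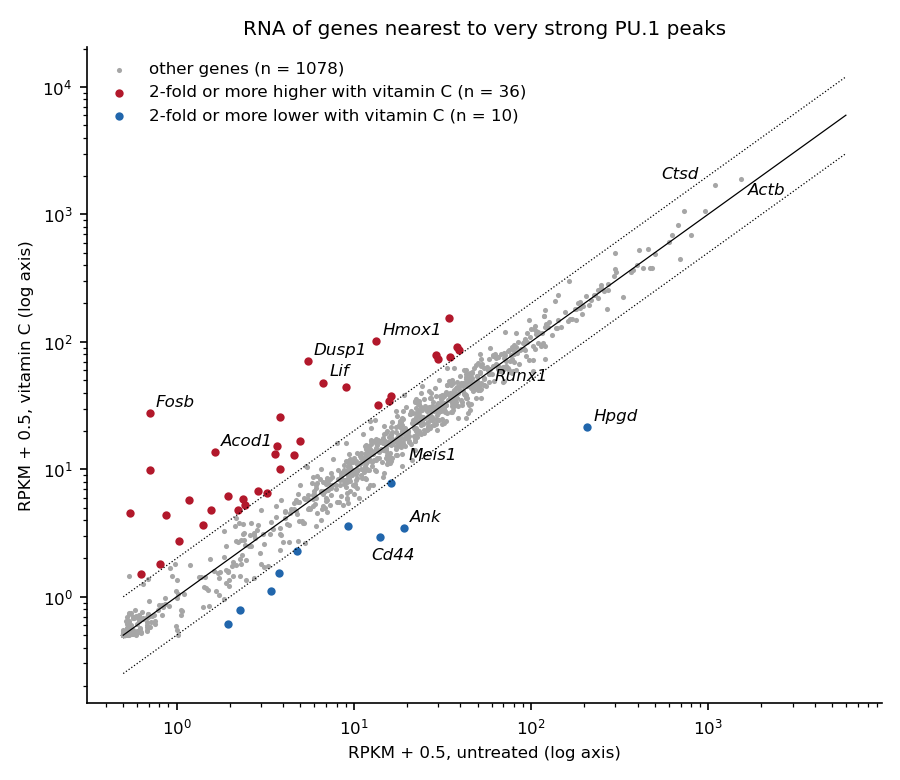
RPKM + 0.5 with vitamin C against RPKM + 0.5 untreated, both on log axes, for the 1124 genes nearest to a very strong PU.1 peak, with 36 genes 2-fold or more higher in red, 10 lower in blue and the rest in grey. Most points follow the diagonal, Fosb stands highest above it and Hpgd farthest below.

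By function, the fixed lists held 257 genes, of which 77 were nearest to a very strong peak. Over all 21900 protein-coding genes these were 1159, and among the 10436 genes of at least 1 RPKM they were 859. The list counts below were not tested against these. Of the kinases and adaptors of the Src and Syk pathway, 15 of 38 were nearby, with 27 peaks, and 0 of the 15 passed 2-fold in either direction, as did 0 of the 34 list genes of at least 1 RPKM. Lyn, the Src-family kinase, had the most peaks of any gene, 4, with untreated scores of 367, 245, 174 and 148, all with H3K27ac in both conditions. Its RNA was 46.8 RPKM untreated and 45.9 with vitamin C. Outside the lists, Pdxk, Tbc1d23, Fndc3a and Sema4b had 3 peaks each, and 41.2, 14.8, 21.9 and 11.8 RPKM untreated against 38.2, 14.2, 35.3 and 7.07 with vitamin C. Prkcd, a protein kinase C, had 3 peaks and 82.8 and 82.0 RPKM. Inpp5d, the SHIP1 phosphatase, had 75.5 and 69.7 RPKM, and Plcg2, a phospholipase, 102 and 72.2. Both stayed within 2-fold.

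Of the Fc, lectin and innate receptors, 11 of 35 were nearby. Clec4n, the Dectin-2 gene, was more than 2-fold higher (0.533 and 2.22 RPKM), and 0 of the 10 tested were lower by 2-fold or more. In the whole list 6 of 26 tested genes were higher and 1 lower. Fcer1g, the common gamma chain of activating receptors, had a peak of 226 and 57.7 over its start and 603 and 608 RPKM. Fcgr2b, the inhibitory Fc receptor, had 58.5 and 89.7 RPKM, and Clec12a 26.8 and 36.1. The endotoxin receptor gene Tlr4 had 17.8 and 23.0 RPKM. Peaks covered the starts of Fcer1g, Fcgr2b, Clec12a, Clec5a, Tlr9, Pirb and Pira2 in this list.

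Cytokine and chemokine receptors had 12 of 34 genes nearby. Ccr2, the monocyte chemokine receptor, was more than 2-fold higher (38.9 and 85.4 RPKM). Il6ra was more than 2-fold lower (1.79 and 0.293). In the whole list 3 of 25 tested genes were higher and 4 lower. Cxcr4 had 121 and 137 RPKM, Il17ra 82.4 and 59.6, and Il4ra 70.5 and 78.1. Surface and adhesion genes had 13 of 30 nearby, and Cd44 was the 1 gene of the 13 past 2-fold. In the whole list 3 of 30 tested genes were higher and 1 lower. Itgb7, an integrin chain, had 374 and 364 RPKM, and Emb, the embigin gene, 248 and 277. Cd53, a tetraspanin chosen after its values were seen, had a peak of 345 and 165 over its start and 142 and 234 RPKM. The progenitor antigen Cd34 had 299 and 498 RPKM, and Adgre1, the F4/80 antigen, 165 and 298, both short of 2-fold.

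Of the transcription factors, 11 of 51 were nearby, and 0 of the 9 tested passed 2-fold. Among the 44 tested genes of the list, 8 were higher and 3 lower by 2-fold or more. Fli1, an ETS factor, had 51.1 and 57.6 RPKM, Irf2 31.0 and 22.1, and Ikzf1 26.9 and 21.4. Granule and oxidase genes had 4 of 28 nearby. Ncf1, an oxidase subunit, had 3 peaks, one over its start, and 140 and 129 RPKM, and Cyba had 368 and 354. Ctss, a lysosomal protease, was more than 2-fold higher (2.75 and 6.02 RPKM), and 0 of the 4 were lower by 2-fold or more. In the whole list 1 of 19 tested genes was higher and 3 were lower.

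Immediate early and feedback genes had 11 of 38 nearby, and 9 of the 11 were 2-fold or more higher with vitamin C, with 0 lower. They were Fosb, Dusp1, Dusp4, Dusp6, Rgs2, Nfkbiz, Tnfaip3, Atf3 and Klf6. In the whole list 24 of 37 tested genes were higher, and the median log2 change was 1.61 both for the list and for its nearby genes. Klf6, a zinc finger factor, had 29.4 and 72.6 RPKM. Fosl2, an AP-1 factor (21.8 and 24.1 RPKM), and Dusp5 (44.6 and 56.7 RPKM) stayed within 2-fold. These genes make up 9 of the 36 nearby genes that were higher.

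Several defining myeloid genes had no very strong peak nearest to them. Peaks were counted here by their nearest start, so a stronger peak assigned to a neighbouring gene is left out. Spi1 itself was nearest to 8 untreated peaks, the highest scored 35.6. It had 105 RPKM untreated and 83.0 with vitamin C. The highest peak of Gfi1, a repressor of granulocyte development, scored 92.3, that of Mpo, the primary granule enzyme, 37.1, and that of Kit, the SCF receptor, 4.82. Mpo had 796 and 131 RPKM, and Kit 32.1 and 5.07. Cebpa, Cebpe and Irf8, factors of the granulocyte and monocyte lineages, had highest peaks of 27.9, 45.4 and 45.4, and Csf3r, the G-CSF receptor, 12.5. Hoxa9, the immortalizing gene, was nearest to 0 peaks and had 3062 and 1487 RPKM. Fos, with a highest peak of 75.1, had 0.187 and 74.5 RPKM. A change larger than 2-fold thus also stood at genes with no very strong peak nearest to them.

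The RNA libraries held 86804487 reads untreated and 111453443 with vitamin C over 22371 genes. The 11 neutrophil and monocyte markers summed to 4805 RPKM untreated and 3076 with vitamin C, with 3 of them lower by 2-fold or more. Most of the lower sum came from Ctsg (2101 and 1136 RPKM) and Mpo (796 and 131). Not all of these markers were lower: Ly6c2 had 1122 and 1331 RPKM, and Itgam and Csf1r were also higher with vitamin C. The 7 mast cell and basophil markers summed to 2112 and 2850 RPKM, most of it from the protease gene Cpa3 (1863 and 2488). Of these 7 markers, 2 were higher by 2-fold or more. In that list 1 marker, Fcer1a, had 0 reads untreated, and none was nearest to a very strong peak. T cell markers summed to 4.21 and 4.31 RPKM, nearly all from Lck. Erythroid markers gave 340 and 380 RPKM, mainly from Hbb-bs, and megakaryocyte markers 160 and 152. The part of these markers in the RNA differences near the peaks was not tested.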

How the data were processed

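Per the submitters' processing notes, the build was mm10 and the tools were MACS2 2.1.0.2, Picard, SAMtools 0.1.16, 0.1.8 and 0.1.2, Novoalign 3.02.08, CASAVA 1.8.2 and BWA, with no role given. Of 24 samples, each its own group with 1 library, files of 18 were read. The PU.1 and Runx1 lists give each peak a score, deposited by the authors with no definition. The histone lists give each peak a p-value or a q-value, as deposited by the authors, and do not state which. The RNA files hold a whole-number read count and an RPKM value per Ensembl gene, both deposited by the authors, with no counting tool given in the sources used here. Methylation region lists were deposited as positions without values. The lists were made per library.

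Repeated intervals of the PU.1 lists (1159 and 259 lines) were joined at their highest score. Peaks overlapped when they shared 1 bp. Gene starts came from RefSeq promoters and spans on GRCm38.p6, which shares the coordinates of mm10, for 17492 of 21900 coding genes; for the other 4408 both ends of the span were used and the place could stay undetermined. The nearest start within 50 kb named the nearby gene, and 14 genes were matched by synonyms. RNA was compared as log2(RPKM + 0.5) for genes of at least 1 RPKM in 1 or both libraries. Shares carry exact Clopper-Pearson intervals at 95%, and RPKM ratios an exact binomial interval of their reads.

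Named peaks were the 8 highest untreated, the 6 highest with vitamin C, and 5 on each side of the threshold; 1 named peak and 1 marker list are not reported here. Named genes were those nearest to these peaks, the 6 with the most peaks, the 8 with the highest untreated RPKM, the 8 largest rises and 8 largest falls among genes of at least 5 RPKM in 1 or both libraries, up to 6 per list by untreated RPKM, and 14 fixed genes. The peaks, lists and tests were chosen with earlier results of these data known. Scripts in Python 3.11.15 with pandas 2.3.3, NumPy 2.4.6, SciPy 1.17.1 and Biopython 1.88 were tested on simulated data. Alternatives covered the score threshold, promoter width, overlap rule, distance, pseudocount, filter and fold.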

Additional observations from a re-analysis of the deposited data

How the results depend on the processing

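No paired analysis was possible because each condition had 1 library, and no library could be left out for the same reason. The number of very strong peaks was 4800 with an untreated score of 50 or more, 738 with 150 and 311 with 200. Promoter shares were 6.49% within 500 bp, 13.0% within 2.5 kb and 15.6% with all genes in place of coding ones. With thresholds of 50, 150 and 200, untreated H3K4me3 lay over 60.1%, 73.7% and 76.5% of the peaks, vitamin C H3K4me3 over 61.8%, 74.8% and 76.5%, untreated H3K27ac over 60.2%, 75.1% and 78.5%, vitamin C H3K27ac over 58.9%, 73.6% and 77.2%, and untreated Runx1 over 5.46%, 8.27% and 9.32%. Vitamin C Runx1 gave 5.81% at 50 and 9.003% at 200, untreated H3K4me1 62.6% at 50 and vitamin C H3K4me1 44.4% at 200. In the 200 bp window around the midpoint, H3K4me3 gave 64.0% untreated and 64.4% with vitamin C, H3K27ac 64.5% and 62.3%, WGBS iMR 0.115%, WGBS deMR 0.689% and hMeDIP iHR 0.632%. With peaks up to 500 bp apart counted as overlapping, vitamin C Runx1 gave 8.67%, WGBS deMR 2.81%, MeDIP deMR 0.862% and hMeDIP iHR 2.18%. Within 10 kb the median RPKM was 13.8 untreated and 14.8 with vitamin C. The higher genes numbered 77 at 1.5-fold, and the lower ones 18 with a pseudocount of 0.1, 5 at 5 RPKM or more and 48 at 1.5-fold. In place of the 7-base motif, GGAA gave 100% and its 10-letter form 18.1%. The cause of these shifts was not tested beyond the change of setting itself. Of the log2 changes of single named genes recomputed with other pseudocounts, 193 recomputed values moved little and 45 moved. A pseudocount cannot turn the direction of such a change, so the directions were not tested by this. The precision of shares is set by the number of peaks, and an interval does not cover differences between cultures.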
